A study of Mus musculus with 12 samples.

Results

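Mouse CD4+ T cells steered towards the Th2 fate were compared with cells steered towards the regulatory T cell (Treg) fate, across all genes of the array. The comparison takes the 3 unstimulated Th2 arrays and the 3 unstimulated Treg arrays, 6 of the 12 arrays of the series. The rest are 3 arrays of Th9 cultures, which had IL-4 and TGF-β together, and 3 of Th9 cultures restimulated with anti-CD3 for 6 h. Naive CD4+ T cells of C57BL/6 mice were purified from spleen and lymph nodes on magnetic columns, activated through CD3 and CD28 and kept for 5 days, with expansion on day 3. To the Th2 cultures, IL-4 and a neutralising antibody to IFN-γ were added. To the Treg cultures, TGF-β and a neutralising antibody to IL-4 were added, and IL-2 when they were expanded. The doses are given with the Th9 recipe, as 20 ng/ml of IL-4 and 2 ng/ml of TGF-β. The labels name no IL-2 for the Th2 cultures and no antibody to IFN-γ for the Treg cultures. The 2 kinds of culture thus differ by IL-4, TGF-β, both antibodies and IL-2 at once, and the effects of these agents cannot be told apart here. The labels name no sorting of the cultured cells, so RNA is taken here to come from whole cultures. Whether the 3 arrays of a group stand for different mice, different cultures or repeat extracts is not given, and p-values therefore cover only how these samples spread, which may be technical.

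As background, IL-4 acts through its receptor and the kinases JAK1 and JAK3 on STAT6, which induces the master regulator gene Gata3, and Th2 cells in turn secrete IL-4, IL-5 and IL-13. TGF-β acts through a pair of receptor chains and SMAD2, SMAD3 and SMAD4, and together with IL-2 it induces Foxp3, whose product defines Treg cells, in newly activated T cells. Interferons bind receptors at the cell surface and turn on a large set of antiviral genes, and activated T cells switch from oxidative metabolism to glycolysis as they grow and divide.

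The 2 cultures differed at most genes. A level is given throughout as log2 of the signal minus the 75th percentile of the array, so that 0 lies at that percentile, and a difference is Th2 minus Treg on this log2 scale with the standard error (SE) of the limma fit, n = 3 per group. Of 17925 genes tested, 5249 (29.3%) were higher in Th2 and 5998 (33.5%) lower at an adjusted p under 0.05, 11247 (62.7%) in all. By at least 2-fold, 2813 were higher and 2836 lower, and by at least 8-fold 549 and 403. The median difference over all genes was -0.08. With so many genes called, a list with about 29.3% of its members higher and 33.5% lower does not stand out from the genes at large. At 12439 of the 17925 genes the arrays of the 2 groups did not overlap, so a lack of overlap is common here.

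Arrays of 1 group correlated at 0.9898 to 0.9954 over genes and arrays of different groups at 0.9037 to 0.9180. In a principal component analysis of the 6 arrays, component 1 (89.4% of the variance) separated the groups and component 2 (4.2%) set Treg 3 apart from the other Treg arrays. Against the mean of the other arrays of its group, Treg 3 was more than 1 log2 unit away at 824 genes and each of the others at 319 to 529. Slide 1 carried all 3 Th2 arrays and Treg 1, and slide 2 carried Treg 2 and Treg 3, so the slide could be checked by setting the Th2 arrays against Treg 1 within slide 1. There all 11247 called genes kept their direction and 8780 were called again. That check holds 4 of the same 6 arrays, so a shared direction is partly built in, and with 1 Treg array on the slide its spread is taken from the other groups. Of 5649 genes called with at least 2-fold, 5239 (92.7%) had at least 2-fold the same way. Values from this check are given below as within slide 1.

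T cell genes were expressed in both cultures, and the Treg arrays also carried transcripts of B cells. All 11 pan T cell markers, among them Cd4, Cd3e and Thy1, were well above background on all 6 arrays, and 8 of them were lower in Th2 (median -0.90), among them Cd3e (-1.42 ± 0.15) and Cd5 (-1.18 ± 0.14). All 12 B cell markers were lower in Th2 (median -4.28; -4.40 within slide 1). Ms4a1, which encodes CD20, had levels of -0.45, -0.24 and -1.24 on the Th2 arrays and 4.73, 4.71 and 4.26 on the Treg arrays. Fcrla, an Fc receptor-like gene of B cells, was well above background on no Th2 array and at least 170-fold higher in Treg (adjusted p = 2.66e-09). The other B cell markers were above background in both cultures, Cd79a on 2 of the 3 Th2 arrays. Their summed linear level, in multiples of the array's 75th percentile, was 23.8 to 28.5 on the Th2 arrays and 329 to 379 on the Treg arrays, without overlap.

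Most MHC class II markers were lower in Th2 too, while myeloid markers went both ways. Of 5 MHC class II markers, 4 were lower in Th2 (median -4.05), among them Cd74, the invariant chain gene (-4.11 ± 0.37, adjusted p = 3.85e-06), H2-Eb1 (-4.09 ± 0.49) and the class II transactivator gene Ciita (-4.05 ± 0.41). H2-Ab1 did not pass (-0.05 ± 0.24, adjusted p = 0.879), and 2 of its 4 probes were called lower, by -0.67 and -0.75. The summed class II level was 27.3 to 48.3 in Th2 and 78.6 to 112 in Treg. Of 10 tested myeloid and dendritic cell markers, 2 were higher and 6 lower. Lyz2, the lysozyme gene of macrophages, was at least 78.2-fold and Itgam (CD11b) at least 2.51-fold higher in Treg. Neither was well above background on a Th2 array. With normexp background correction, which raises dim signals, the differences were -3.81 for Lyz2 and -0.48 for Itgam. Adgre1, which encodes F4/80, was higher in Th2 (3.14 ± 0.30, adjusted p = 6.14e-06). Their summed levels overlapped, with 2.56 to 3.11 in Th2 and 1.63 to 2.92 in Treg. Siglech, Clec9a and the neutrophil markers S100a8, S100a9, Camp and Ngp were not well above background on any of the 6 arrays. The part of B cell and myeloid transcripts in the results below was not tested. In bulk RNA, fewer cells of a type and less RNA per cell cannot be told apart.

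Of 5 tested mast cell and basophil markers, 1 was lower in Th2, Fcer1a (-0.96 ± 0.21, adjusted p = 0.00260), a difference of -0.33 with normexp background correction, which raises dim signals. Of 7 markers of CD8 T cells and NK cells, 2 were higher and 2 lower. Klrb1c, which encodes NK1.1, was at least 6.28-fold higher in Th2, a difference of 0.85 with the normexp correction. Klra8 was higher by 1.69 ± 0.36 (0.48 with that correction). It is a member of a family of near-identical genes whose probes may bind each other's transcripts. Klrd1, which encodes CD94, was lower (-3.33 ± 0.54). Cd8a (-0.72 ± 0.96) did not pass, nor did Cd8b1 by its brightest probe (-0.02 ± 0.46), though its second probe was called lower (-0.93 ± 0.13).

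**Figure D1:**
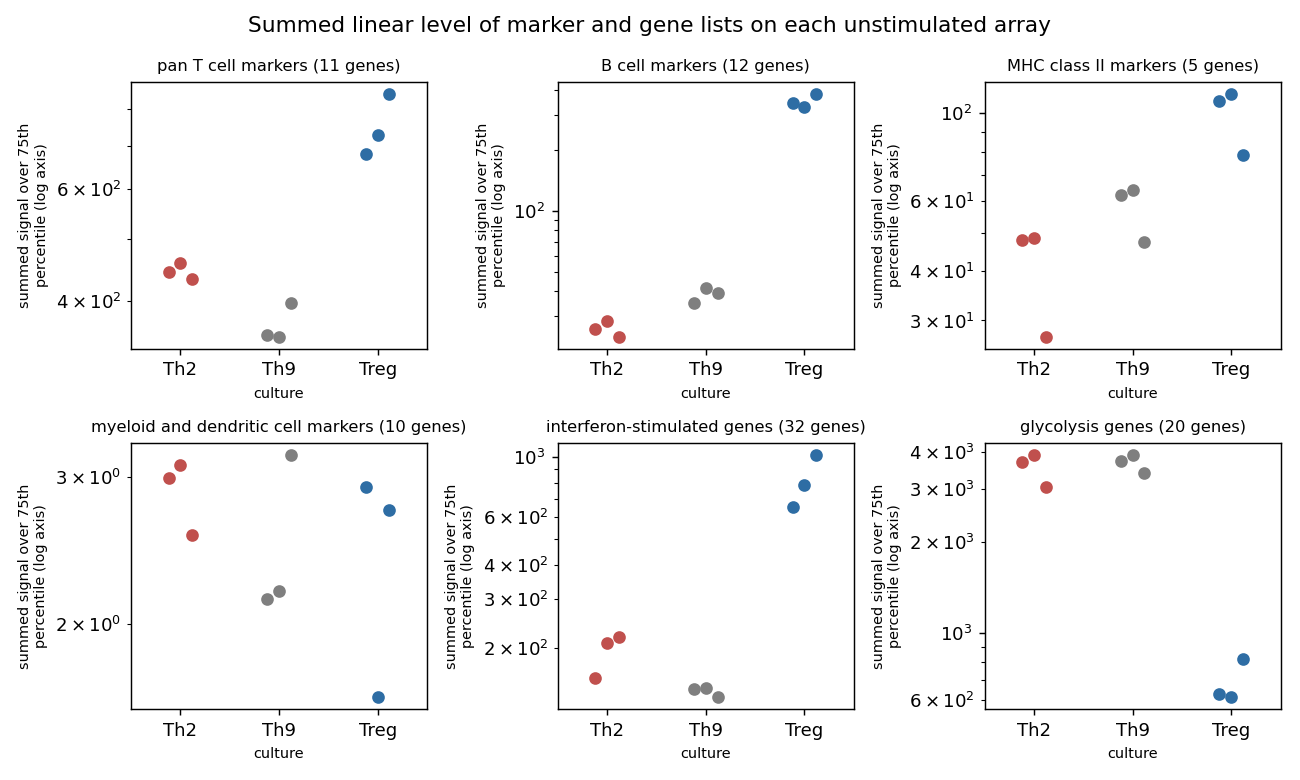
Each point is 1 unstimulated array, placed by culture, and the vertical log axis gives the summed linear signal of the tested genes of a list in multiples of the array's 75th percentile. The Treg points lie above all Th2 points for pan T cell markers, B cell markers, MHC class II markers and interferon-stimulated genes, and below them for glycolysis genes. For myeloid markers Treg 2 lies below the Th2 points and Treg 1 and Treg 3 lie among them.

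The Th2 cytokine genes Il4, Il5 and Il13 were all higher in Th2, the first 2 by wide margins. Il4 had levels of 5.05, 5.15 and 4.88 on the Th2 arrays and -6.47, -6.46 and -5.08 on the Treg arrays, where its probe was well above background on 1 of 3. The difference was 11.03 ± 0.40 (adjusted p = 9.59e-09), and 11.50 within slide 1. Il5, the eosinophil growth factor, stood at 1.70, 1.62 and 1.24 in Th2 and was not well above background on any Treg array, which makes it at least 182-fold higher (adjusted p = 9.27e-08). Il13 stood at -1.66, -1.70 and -1.66 in Th2 and -4.98, -5.10 and -5.02 in Treg, a difference of 3.36 ± 0.23 (adjusted p = 5.31e-07). With the normexp correction the difference was 7.99 for Il4 and 1.63 for Il13. For all 3 genes the lowest Th2 array lay above the highest Treg array.

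Il10, an anti-inflammatory cytokine made by both Th2 cells and Treg cells, was also a gene of the Th2 cultures here. Its levels were 2.74, 2.38 and 2.23 in Th2 and -5.53, -5.69 and -5.26 in Treg, a difference of 7.94 ± 0.28 (adjusted p = 7.79e-09). Il24, an IL-10 family gene induced by IL-4, differed by 9.86 ± 0.20 (adjusted p = 3.44e-10). Il21, the cytokine of follicular helper T cells, was at least 5.79-fold higher in Th2, a difference of 0.83 with the normexp correction. Of 29 tested cytokine genes, 14 were higher in Th2 and 7 lower, with a median difference of 0.85 (12 and 7 within slide 1). One of the 14, Areg, was not well above background on any of the 6 arrays. Ifng, the Th1 cytokine gene, stood at -2.10, -1.89 and -2.54 in Th2 and -1.0, -1.24 and -1.55 in Treg. The groups did not overlap, but the difference of -0.91 ± 0.79 did not pass (adjusted p = 0.337). That SE, like the one of Csf2 below, also holds the spread of the Th9 and restimulated Th9 arrays. The Ifng difference was -1.18 within slide 1, and it passed when only the 6 arrays were fitted (adjusted p = 0.00987). Il9 was not well above background in either culture, Csf2 (1.54 ± 0.69, adjusted p = 0.0746) did not pass, and the cytokine genes Il17f (0.20 ± 0.28) and Il22, the latter below background, did not pass either.

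**Figure D2:**
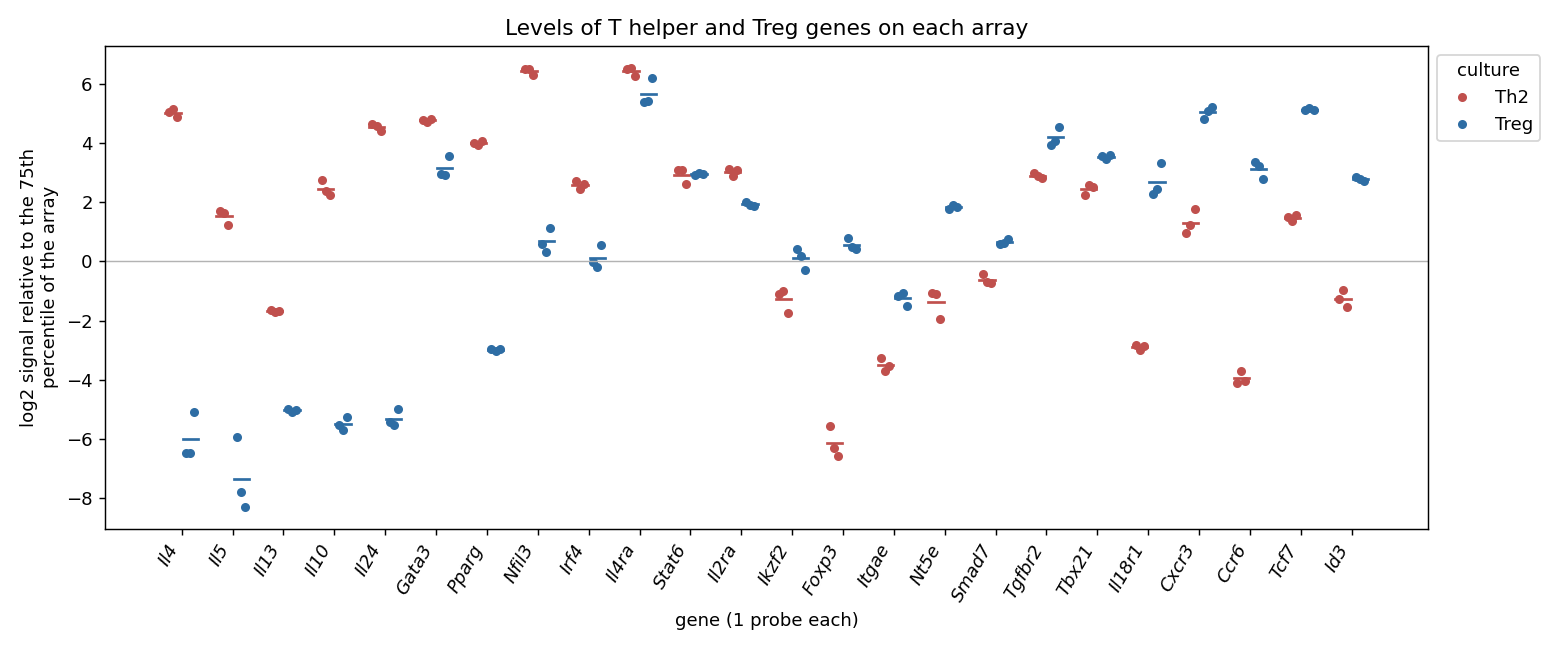
Each point is the level of a gene on 1 array (log2 signal relative to the array's 75th percentile), with Th2 arrays in red, Treg arrays in blue and short lines at the means of 3 arrays. The Th2 points of Il4, Il5, Il13, Il10 and Il24 lie above all Treg points, those of Foxp3, Itgae, Nt5e, Ccr6, Tcf7 and Id3 lie below, and those of Stat6 overlap.

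The genes through which a T cell senses IL-4 were higher for some and lower for as many others. Of 11 genes of the IL-4 receptor and its signalling chain, 5 were higher and 5 lower in Th2, with a median of -0.02. Il4ra, the receptor chain that binds IL-4, stood at 6.51, 6.54 and 6.27 in Th2 and 5.39, 5.43 and 6.20 in Treg, with Treg 3 close to the Th2 arrays. Its difference of 0.77 ± 0.22 (adjusted p = 0.0103) was lost with quantile normalization (0.49, adjusted p = 0.0619), which left 3 of the genes called higher. Stat6, the transducer, overlapped between the groups (3.09, 3.08 and 2.61 in Th2, 2.93, 2.98 and 2.95 in Treg; difference -0.02 ± 0.15, adjusted p = 0.897). Jak1, the kinase bound to Il4ra, was lower in Th2 (-1.20 ± 0.11, adjusted p = 4.64e-06). Socs1, an inhibitor of JAK kinases, was higher (0.96 ± 0.13, adjusted p = 6.38e-05), and Socs5 was lower (-1.12 ± 0.14, adjusted p = 4.43e-05). Il13ra1, the partner chain of Il4ra for IL-13, was above background on 2 Th2 arrays and no Treg array and at least 1.16-fold higher (adjusted p = 0.0130, not past the threshold with the normexp correction).

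Transcription factor and receptor genes of Th2 cells were mostly higher in the Th2 cultures: 18 of 24 were higher and 1, Notch2, was lower (median 2.65; 18 and 2 called within slide 1). Gata3 was expressed in both cultures. Its levels were 4.77, 4.71 and 4.83 in Th2 and 2.94, 2.93 and 3.57 in Treg, 3.08-fold higher in Th2, a difference of 1.62 ± 0.16 (adjusted p = 9.26e-06). The margin was far wider for Pparg, a nuclear receptor of fatty acids, at 3.99, 3.93 and 4.05 in Th2 and -2.98, -3.04 and -2.95 in Treg (6.98 ± 0.24, adjusted p = 6.59e-09). Cyp11a1, the enzyme that starts steroid hormone synthesis, differed by 7.64 ± 0.25 (adjusted p = 6.48e-09), the phospholipase gene Plcd1 by 6.27 ± 0.27 and Nfil3, a basic leucine zipper factor gene, by 5.76 ± 0.21. Irf4, a factor of activated T cells, was higher by 2.48 ± 0.18 (adjusted p = 1.01e-06) and its partner Batf by 0.83 ± 0.18 (adjusted p = 0.00221). Ccr3 (0.49 ± 0.21), Notch1 (-0.10 ± 0.12), Ptgdr2, which encodes CRTH2 (-0.33 ± 0.13), and Il1rl1, the IL-33 receptor gene (-0.85 ± 0.41), did not pass.

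Of 16 genes known to be induced by IL-4 and STAT6, 11 were higher and 2 lower (median 1.29), and 10 and 3 were called within slide 1. Il24, Pparg and Nfil3 led them. Cish, a feedback inhibitor that STAT5 and STAT6 both induce, differed by 2.93 ± 0.21 (adjusted p = 7.88e-07). Ccl24, an eosinophil-attracting chemokine gene, was at least 1.56-fold higher in Th2 (adjusted p = 0.0156), a call that was lost within slide 1 (adjusted p = 0.0892) and with the normexp correction. The lower ones included Ccl22, a chemokine of dendritic cells that attracts CCR4-bearing cells. Ccl22 was well above background on no Th2 array and at least 2.00-fold higher in Treg, a difference of -0.47 with the normexp correction. The 4 class II markers and the B cell markers were higher in Treg too, while the summed levels of myeloid and dendritic cell markers overlapped. The part of other cell types in the Ccl22 difference was not tested.

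Foxp3 was high on every Treg array and not well above background on any Th2 array. The tested Treg genes as a whole went both ways, 24% lower and 48% higher in Th2, beside 33.5% and 29.3% of all genes. Foxp3 stood at -5.56, -6.31 and -6.59 in Th2 and 0.78, 0.49 and 0.43 in Treg, and was at least 82.3-fold higher in Treg (adjusted p = 6.48e-09). Ikzf2, which encodes the Foxp3 partner Helios, was lower in Th2 (-1.11, -1.01 and -1.74 against 0.42, 0.19 and -0.30; -1.39 ± 0.26, adjusted p = 0.000746), and 4 of its 5 probes were called lower. Nt5e (CD73), which makes immunosuppressive adenosine, was lower (-3.20 ± 0.27, adjusted p = 2.63e-06). Itgae (CD103), an integrin that binds E-cadherin, was lower (-2.26 ± 0.37, adjusted p = 0.000313). Of 25 tested Treg genes, 6 were lower in Th2 and 12 higher (median 0.95; 5 and 11 within slide 1).

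Among the Treg genes that were higher in Th2 are ones that activated T cells share. They were led by Tnfrsf9, the costimulatory receptor 4-1BB, at 4.31, 3.86 and 3.99 in Th2 and -1.22, -1.62 and -1.18 in Treg (5.39 ± 0.15, adjusted p = 2.03e-09). Gzmb, a granule protease of cytotoxic cells, differed by 4.02 ± 0.54 (adjusted p = 7.94e-05). Il2ra, the high-affinity chain of the IL-2 receptor (CD25), stood at 3.12, 2.89 and 3.10 in Th2 and 2.00, 1.90 and 1.88 in Treg and was 2.15-fold higher in Th2 (1.11 ± 0.13, adjusted p = 3.38e-05). All 4 probes of Il2ra were called higher. Ctla4, the inhibitory receptor through which Treg cells act, overlapped between the groups (2.55, 2.70 and 1.78 in Th2, 1.81, 1.63 and 2.47 in Treg; 0.37 ± 0.32, adjusted p = 0.323). Gpr83 (0.20 ± 0.26) and Entpd1, which encodes CD39 (0.16 ± 0.20), did not pass. Icos (0.04 ± 0.16) and Ikzf4 (0.24 ± 0.27) did not pass by their brightest probes, while 1 other probe of each was called higher (0.96 ± 0.22 and 0.49 ± 0.17).

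Among the parts of the TGF-β pathway, ligand genes were higher and 1 receptor gene lower in Th2. The ligand genes Tgfb1 (2.01, 2.04 and 2.07 in Th2, 1.25, 1.30 and 1.35 in Treg; 0.74 ± 0.10, adjusted p = 7.33e-05) and Tgfb3 (3.51, 3.25 and 2.27 in Th2, 0.41, 0.44 and 0.30 in Treg; 2.63 ± 0.28, adjusted p = 1.36e-05) were both higher in the cultures that had received no TGF-β. Ltbp3, which anchors latent TGF-β in the matrix, was higher by 4.95 ± 0.27 (adjusted p = 1.12e-07), but by 2.07 ± 0.18 with its second probe. Tgfbr2, the receptor chain that binds TGF-β first, was lower (2.98, 2.89 and 2.81 against 3.94, 4.07 and 4.55; -1.29 ± 0.15, adjusted p = 2.41e-05), but its second probe was called the other way (0.79), and the call was lost when its probes were averaged (-0.25). Tgfbr1 (0.01 ± 0.12, adjusted p = 0.956), whose 3 arrays overlapped between groups, did not pass. The signal transducer Smad3 (0.16 ± 0.13, adjusted p = 0.326) did not pass by this probe, while 1 of its 3 probes was called higher (0.56). Smad2 (0.23 ± 0.11) and Smad4 (-0.24 ± 0.13) did not pass. Smad7, an inhibitory SMAD that TGF-β induces, stood at -0.44, -0.70 and -0.74 in Th2 and 0.58, 0.61 and 0.77 in Treg, a difference of -1.28 ± 0.12 (adjusted p = 6.62e-06). Of 22 such genes, 8 were higher and 6 lower (median 0.04). The first count was 5 within slide 1 and 5 without Treg 1.

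Genes known to be induced by TGF-β split about evenly: 10 of 21 were lower in Th2 and 9 higher (median 0.07; 9 and 6 within slide 1). The lower ones held Foxp3, Smad7, Itgae and Nt5e, together with Gpr15, a homing receptor of the large intestine. Gpr15 was at least 3.77-fold higher in Treg, a difference of -0.76 with the normexp correction. Id3, an inhibitor of E proteins, stood at -1.26, -0.96 and -1.54 in Th2 and 2.85, 2.80 and 2.72 in Treg (-4.05 ± 0.19, adjusted p = 4.44e-08). Of the higher ones, Cdkn1a, which encodes the cell cycle inhibitor p21, was higher by 4.62 ± 0.29 (adjusted p = 2.94e-07). Pmepa1, another known target, did not pass by its brightest probe (0.07 ± 0.10), and its second probe was called lower (-0.96 ± 0.17).

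Genes of the IL-2 receptor and STAT5 were more often higher in Th2, 13 of 22 against 6 lower (median 0.70; 12 and 5 within slide 1). Il2 itself was well above background on no Th2 array and was above it on 2 Treg arrays, and was called lower in Th2 (at least 2.02-fold, adjusted p = 0.00109; named after its value was seen). Besides Il2ra and Cish, Lta, which encodes lymphotoxin, was higher by 1.95 ± 0.23 and Prdm1, which encodes the differentiation factor BLIMP-1, by 2.49 ± 0.25 (adjusted p = 9.96e-06). Bcl6, a repressor that opposes BLIMP-1, was lower. Its levels were 0.02, -0.09 and 0.21 in Th2 and 3.21, 3.45 and 3.37 in Treg (-3.29 ± 0.21, adjusted p = 3.55e-07). Stat5b (-0.17 ± 0.12) and Ccnd2 (0.18 ± 0.12) did not pass by their brightest probes, while 1 of 3 probes of Stat5b (2.37 ± 0.18) and 2 of 3 of Ccnd2 (0.58 ± 0.12 and 0.72 ± 0.14) were called higher.

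Costimulatory and inhibitory receptor genes split, with 9 of 21 higher and 8 lower in Th2 (median 0.08). Tnfrsf8 (CD30) was not well above background on any Treg array and at least 81.9-fold higher in Th2 (adjusted p = 6.59e-09). Havcr2, the inhibitory receptor TIM-3, was higher by 2.97 ± 0.56 (adjusted p = 0.000797), and by 1.42 with the normexp correction, but its second probe gave -0.02 and did not pass. Cd27, a receptor that is lost on differentiation, stood at 1.96, 1.85 and 1.84 in Th2 and 4.91, 5.02 and 5.31 in Treg (-3.19 ± 0.40, adjusted p = 4.25e-05). Cd28 (0.08 ± 0.18) did not pass.

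Interferon-responsive genes were lower in Th2 almost throughout. Of 32 interferon-stimulated genes, 30 were lower in Th2 and none higher (median -2.87, within slide 1 -2.59), where 33.5% of all genes were lower. The exceptions were Isg20 (0.68 ± 0.30, adjusted p = 0.0719) and Dhx58 (-0.24 ± 0.24, adjusted p = 0.404), and Isg20 passed as higher within slide 1 (1.1). Ifit3, which encodes an antiviral RNA-binding protein, stood at -6.29, -5.82 and -4.86 in Th2, where 1 array was above background, and at 3.83, 4.49 and 5.14 in Treg. Its difference was -10.14 ± 0.51 (adjusted p = 7.09e-08), the largest among genes lower in Th2 under the rule for named genes, and -9.48 within slide 1. Rtp4, a receptor transporter induced by interferon, stood at -3.63, -2.29 and -1.01 in Th2 and 4.76, 5.11 and 5.96 in Treg (-7.59 ± 0.56, adjusted p = 1.06e-06). Oasl2 and Oas1a, of the oligoadenylate synthetase family that senses double-stranded RNA, were lower too (-6.48 ± 0.50 for Oasl2 and -5.70 ± 0.66 for Oas1a). In both groups these 4 genes varied between arrays, with Th2 1 the lowest Th2 array and Treg 3 the highest Treg array for each, but the groups did not overlap. Ifit3 and Ifit3b are near-identical, as are the Oas1 genes, so their probes may bind each other's transcripts.

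Genes induced mainly by IFN-γ followed: 18 of 20 were lower and 1, the inhibitor Socs1, higher (median -1.93; 16 lower within slide 1). The immunity-related GTPase genes Iigp1 (-5.01 ± 0.63, adjusted p = 4.78e-05), Irgm2 (-3.41 ± 0.21) and Irgm1 (-3.0 ± 0.25) were lower, as was Ciita, which B cells also express. Cd274, which encodes the inhibitory ligand PD-L1, did not pass (-0.31 ± 0.24). The summed level of the interferon-stimulated genes was 154 to 218 in Th2 and 653 to 1011 in Treg. On Treg 1, 2 and 3 that sum was 653, 790 and 1011, and the sum of B cell markers was 345, 329 and 379. The part of B cells in the interferon-responsive genes was not tested. The labels name an antibody to IFN-γ for the Th2 and not for the Treg cultures. Its part here, and in the Th1 genes below, cannot be told apart from that of the other agents.

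**Figure D3:**
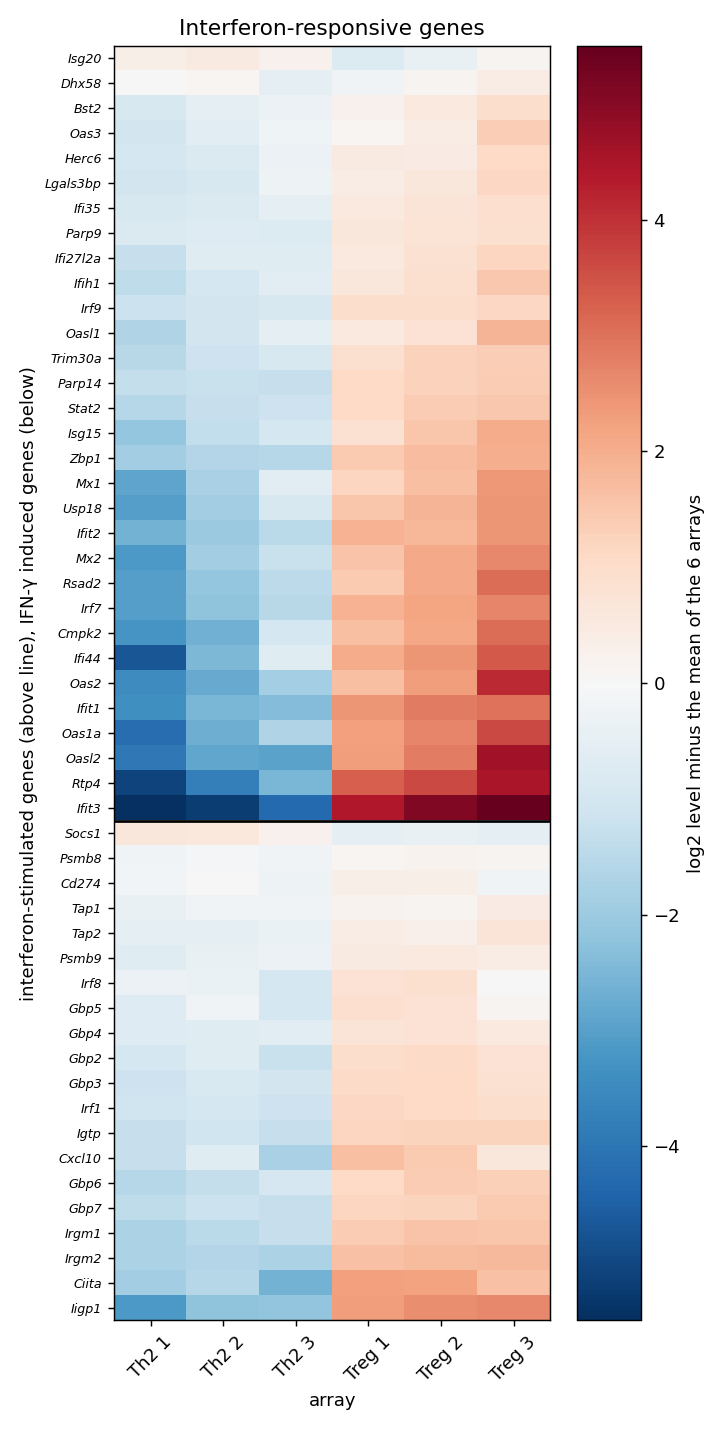
Rows are interferon-responsive genes (interferon-stimulated above the line, induced by IFN-γ below it), columns are the 6 arrays, and colour is the log2 level minus the gene's mean over the 6 arrays. Nearly all rows are blue on the Th2 arrays and red on the Treg arrays, apart from Isg20, Dhx58, Socs1 and Cd274.

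Promoters of these genes are shown because interferon-responsive transcription factors read a known core there, GAAANNGAA for the interferon-stimulated response element and TTCNNNGAA for the gamma-activated site used by IFN-γ signalling. In RefSeq promoters of build GRCm38.p6 (250 bases before to 50 after the start site), matched by symbol, 11 of the 21 interferon-stimulated genes with an entry held GAAANNGAA on either strand (52.4%), against 9.76% of 27025 genes. TTCNNNGAA, which reads the same on both strands, was held by 7 of 15 IFN-γ induced genes (46.7%), against 9.55%. A match is a description of the sequence and not evidence of binding. The last 160 bases before the start site follow for Ifit3, Ifit1 and Isg15 and, for the gamma-activated site, for the guanylate-binding protein gene Gbp7, 5′ to 3′ on the gene's strand and with matches to GAAANNGAA in capitals in the first 3 and to TTCNNNGAA in Gbp7 (overlapping matches run together).
Ifit3 (GRCm38.p6, chr19:34583369-34583528, strand plus): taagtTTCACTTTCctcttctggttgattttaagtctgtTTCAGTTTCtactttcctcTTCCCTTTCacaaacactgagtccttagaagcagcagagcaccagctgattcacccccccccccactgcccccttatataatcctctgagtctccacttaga
Ifit1 (GRCm38.p6, chr19:34640729-34640888, strand plus): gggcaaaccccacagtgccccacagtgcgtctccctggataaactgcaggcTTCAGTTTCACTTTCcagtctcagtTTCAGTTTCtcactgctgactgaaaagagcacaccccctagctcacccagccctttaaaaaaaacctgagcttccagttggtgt
Isg15 (GRCm38.p6, chr4:156200819-156200978, strand minus): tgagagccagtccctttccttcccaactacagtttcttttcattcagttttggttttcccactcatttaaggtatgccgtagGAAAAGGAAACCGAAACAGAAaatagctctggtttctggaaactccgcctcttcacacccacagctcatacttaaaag
Gbp7 (GRCm38.p6, chr3:142530176-142530335, strand plus): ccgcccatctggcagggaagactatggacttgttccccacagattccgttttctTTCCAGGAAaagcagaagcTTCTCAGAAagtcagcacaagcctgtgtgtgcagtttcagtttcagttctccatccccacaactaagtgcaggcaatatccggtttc
The difference was -10.14 ± 0.51 for Ifit3, -5.52 ± 0.27 for Ifit1, -2.95 ± 0.32 for Isg15 and -2.56 ± 0.42 for Gbp7, all lower in Th2. Oasl2 (-6.48) and Irf7 (-4.50) were lower too and held no GAAANNGAA in this window. Ifit1, Isg15, Gbp7 and Irf7 were chosen after their values were seen.

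Th1 genes were also mostly lower in Th2, 12 of 21 against 4 higher (median -1.28; 13 and 4 within slide 1). Tbx21, which encodes T-bet, the Th1 transcription factor, stood at 2.25, 2.57 and 2.52 in Th2 and 3.56, 3.45 and 3.58 in Treg. The difference of -1.08 ± 0.34 (adjusted p = 0.0172) was not past the threshold without Th2 1 (adjusted p = 0.0553). Il18r1, a chain of the IL-18 receptor, stood at -2.82, -2.98 and -2.88 in Th2 and 2.26, 2.45 and 3.32 in Treg (-5.57 ± 0.30, adjusted p = 1.01e-07). Cxcr3, the chemokine receptor of Th1 cells, was lower (-3.73 ± 0.40, adjusted p = 1.37e-05), as was Ccl3, which encodes the chemokine MIP-1α (-3.44 ± 0.78, adjusted p = 0.00272, -1.91 with the normexp correction). Il12rb2 (0.43 ± 0.44) and Nkg7 (0.15 ± 0.67) did not pass.

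Of 11 tested Th17 genes, 5 were higher and 2 lower in Th2 (median 0.55), the first count being 3 without Treg 1 and 3 without Treg 2. One of the lower genes was Ccr6, the receptor for CCL20, at -4.10, -3.71 and -4.03 in Th2 and 3.34, 3.22 and 2.79 in Treg (-7.06 ± 0.29, adjusted p = 2.32e-08). B cells express Ccr6 as well. Il1r1, an IL-1 receptor gene, was above background on 1 Th2 array, and its call (adjusted p = 0.0307) was lost without Th2 1, Th2 3, Treg 1 or Treg 2.

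Genes of naive and resting T cells were lower in Th2, 18 of 24, with 2 higher (median -1.96; 18 and 2 within slide 1). Tcf7, which encodes the stem-like T cell factor TCF-1, stood at 1.49, 1.37 and 1.57 in Th2 and 5.10, 5.17 and 5.10 in Treg, a difference of -3.65 ± 0.12 (adjusted p = 6.59e-09). Dapl1, a gene of naive and memory T cells, stood at -3.02, -2.72 and -2.44 in Th2 and 3.44, 3.79 and 4.29 in Treg (-6.57 ± 0.30, adjusted p = 4.03e-08). Klf3 (-3.51 ± 0.22, adjusted p = 3.19e-07) and Txnip, which restrains glucose uptake (-3.43 ± 0.23, adjusted p = 5.38e-07), were lower as well. No array of one group reached the range of the other for these 4 genes. Il7r (-0.57 ± 0.26) did not pass. Klf2 (-0.15 ± 0.16) and Satb1 (0.22 ± 0.17) did not pass by their brightest probes, while the other probe of Klf2 was called lower (-2.49 ± 0.27) and that of Satb1 higher (0.67 ± 0.21).

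Genes of T cell receptor signalling leaned the same way, 10 of 17 lower and 2 higher (median -0.45; 7 and 1 within slide 1). The kinase gene Fyn (-1.48 ± 0.14, adjusted p = 7.45e-06), the calcium-dependent factor gene Nfatc1 (-1.09 ± 0.11) and Ptprc, which encodes CD45 (-1.05 ± 0.11), were lower. Themis, a signalling protein gene best known from thymocytes, was higher by 1.22 ± 0.17 (adjusted p = 8.79e-05). The higher count was 1 without Th2 1, Th2 2, Treg 1 or Treg 2 and 5 with the probes of a gene averaged. Of 22 early response genes of the receptor, 12 were higher in Th2 and 4 lower (median 0.80; 12 and 4 within slide 1). The AP-1 genes Fos (3.56 ± 0.49, adjusted p = 8.87e-05), Fosl2 (2.88 ± 0.38, adjusted p = 6.25e-05) and Fosl1 (2.75 ± 0.28, 0.74 with the normexp correction) led the higher ones, with Dusp6, a phosphatase that limits ERK (2.63 ± 0.16). Egr1 (-0.22 ± 0.72), Nr4a1 (-0.63 ± 0.28) and Cd69 (-0.11 ± 0.30) did not pass.

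Of 24 chemokine and homing receptors, 14 were lower in Th2 and 7 higher (median -0.74; 10 and 7 within slide 1). Ccr4, the receptor for CCL17 and CCL22 on Th2 and skin-homing cells, was higher, at 1.26, 1.21 and 0.83 in Th2 and -3.09, -3.12 and -2.39 in Treg (3.96 ± 0.19, adjusted p = 5.82e-08). Ccr6, Gpr15, Cxcr3 and Cxcr5, the receptor that leads cells into B cell follicles, were lower. Cxcr5 stood at -1.30, -1.02 and -1.79 in Th2 and 2.59, 2.55 and 2.19 in Treg (-3.81 ± 0.25, adjusted p = 4.11e-07), and B cells express it too. Of 14 chemokine genes, 7 were lower and 2 higher (median -1.41; 9 and 1 within slide 1, and none higher with the normexp correction). Xcl1, the chemokine that draws cross-presenting dendritic cells, was well above background on no Th2 array and at least 10.6-fold higher in Treg (adjusted p = 0.000566, not past the threshold with the normexp correction).

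Genes of glucose metabolism were higher in Th2 without exception among those tested. All 20 glycolysis genes were called higher (median 2.56; 2.66 within slide 1, where all were called), where 29.3% of all genes were. Hk2, the hexokinase that traps glucose in the cell, stood at 5.74, 5.62 and 5.28 in Th2 and 1.06, 0.66 and 0.52 in Treg, 27.9-fold higher (4.80 ± 0.16, adjusted p = 6.59e-09). Slc16a3, which exports lactate, was higher by 3.60 ± 0.23 (adjusted p = 4.11e-07), Aldoc, an aldolase, by 3.52 ± 0.34 and Pgk1, a phosphoglycerate kinase, by 3.18 ± 0.20. For every one of the 20 genes the lowest Th2 array lay above the highest Treg array. Of all 17925 genes, 12439 lacked overlap in one direction or the other. The smallest difference was 1.26 ± 0.13, for Gpi1.

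Genes that the hypoxia-inducible factors turn on were higher as well, 15 of 16 and none lower (median 2.97), with the same counts within slide 1. P4ha2, a collagen prolyl hydroxylase, stood at 5.52, 5.38 and 4.97 in Th2 and -2.31, -2.80 and -1.35 in Treg (7.44 ± 0.31, adjusted p = 2.27e-08). The second probe of P4ha2 gave 3.65 ± 0.27. Ero1a, an oxidase of the endoplasmic reticulum, stood at 6.32, 6.41 and 5.87 in Th2 and -0.01, -0.05 and 0.16 in Treg, a difference of 6.17 ± 0.14 (adjusted p = 7.25e-10). The adenylate kinase gene Ak4 was higher by 5.51 ± 0.27 and Egln3, an oxygen-sensing hydroxylase, by 5.34 ± 0.25. Pdk1, a pyruvate dehydrogenase kinase gene, did not pass (-0.23 ± 0.22).

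ACGTG, the core of the hypoxia response element, was held by 14 of the 19 glycolysis genes with a RefSeq promoter (73.7%), against 21.8% of all 27025 genes, on either strand. The core also lies within CACGTG, the E-box that MYC reads, where it matches on both strands. The last 160 bases before the start site are shown for Hk2 and Pgk1 and, as an example with CACGTG, for Ldha (lactate dehydrogenase), with matches in capitals, 5′ to 3′ on the gene's strand.
Hk2 (GRCm38.p6, chr6:82774455-82774614, strand minus): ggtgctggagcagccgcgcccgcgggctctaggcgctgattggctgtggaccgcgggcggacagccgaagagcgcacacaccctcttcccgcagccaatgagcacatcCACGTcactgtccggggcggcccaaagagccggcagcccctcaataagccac
Pgk1 (GRCm38.p6, chrX:106186940-106187099, strand plus): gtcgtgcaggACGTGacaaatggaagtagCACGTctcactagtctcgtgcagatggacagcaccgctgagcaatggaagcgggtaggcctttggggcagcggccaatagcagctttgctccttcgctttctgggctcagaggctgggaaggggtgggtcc
Ldha (GRCm38.p6, chr7:46845644-46845803, strand plus): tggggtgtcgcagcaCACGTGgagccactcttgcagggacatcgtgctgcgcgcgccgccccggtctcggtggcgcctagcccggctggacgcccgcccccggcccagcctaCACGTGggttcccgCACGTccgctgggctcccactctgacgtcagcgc
The difference was 4.80 ± 0.16 for Hk2, 3.18 ± 0.20 for Pgk1 and 1.63 ± 0.12 for Ldha, which was chosen for its sequence. Tpi1 (3.17 ± 0.15) and Eno1 (2.53 ± 0.12) held no ACGTG in the windows searched and were higher too, and both were chosen after their values were seen.

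**Figure D4:**
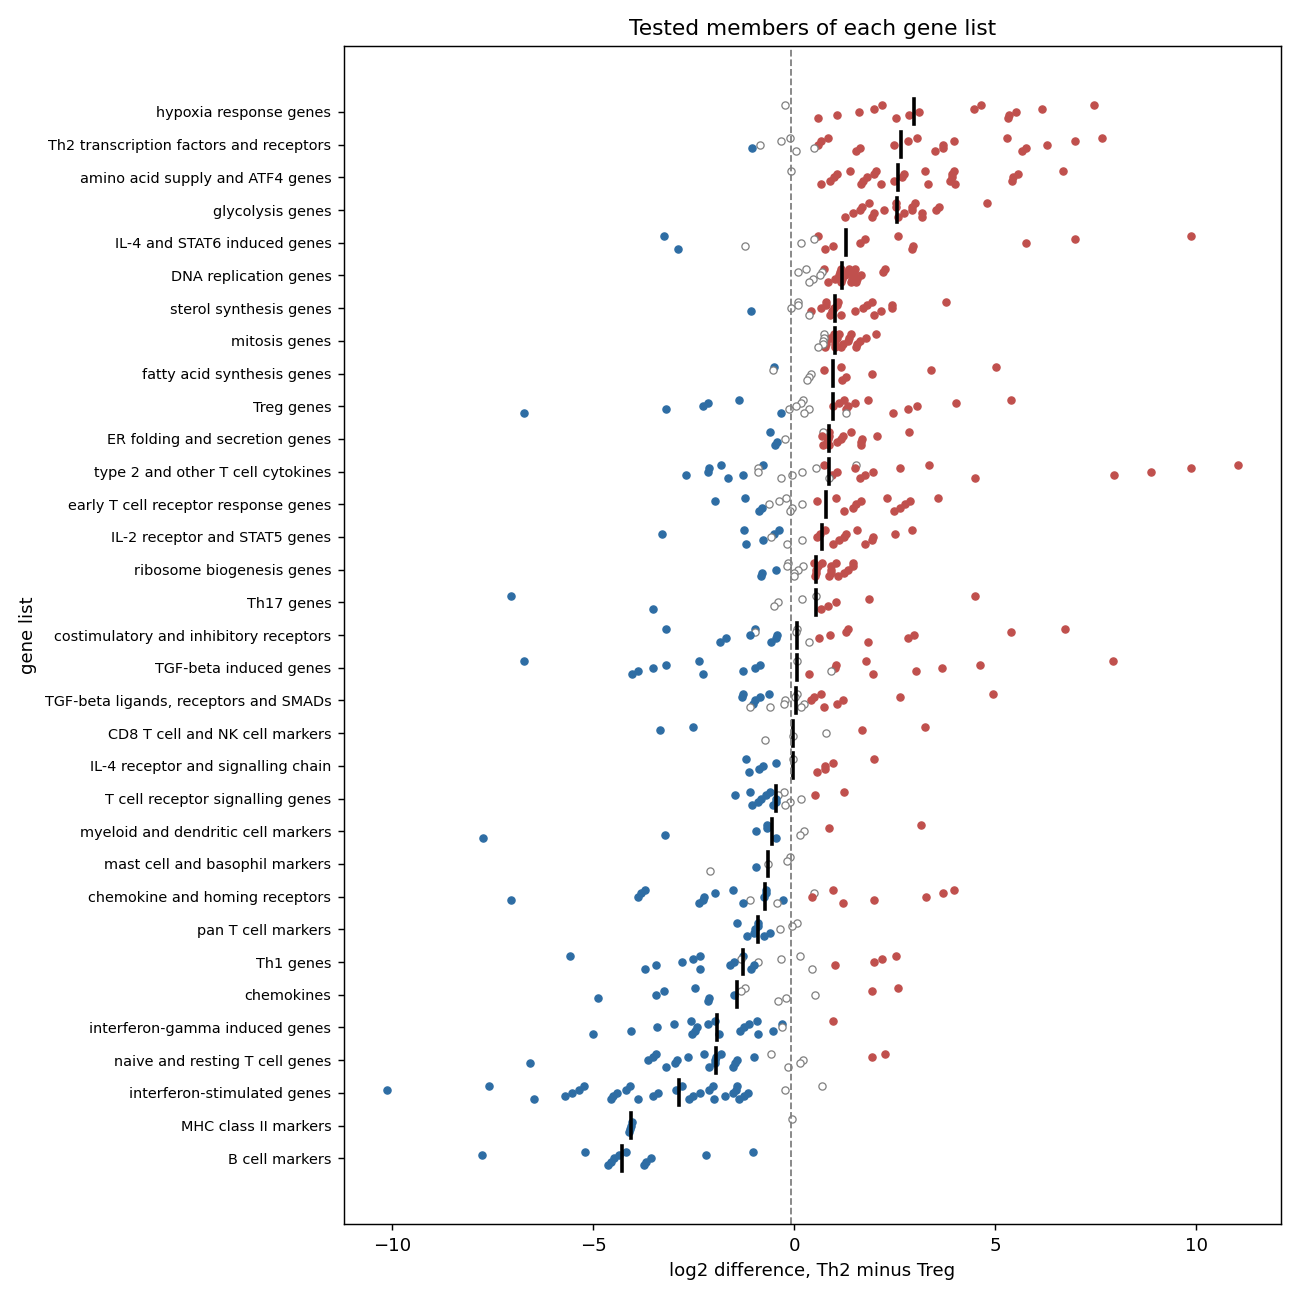
Each point is a tested member of a gene list, placed by its log2 difference (Th2 minus Treg), filled red where called higher in Th2, blue where called lower and open where not called. Black bars are list medians and the dashed line is the median of all 17925 genes. Hypoxia, glycolysis and amino acid supply genes lie to the right, interferon-responsive, naive and B cell genes to the left.

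Supply of amino acids followed. Of 26 genes of amino acid supply and of the stress factor ATF4, 25 were higher in Th2 and none lower (median 2.59; 23 within slide 1). Vldlr, a lipoprotein receptor that ATF4 induces, stood at 4.07, 3.96 and 3.45 in Th2 and -2.45, -2.93 and -3.15 in Treg (6.67 ± 0.23, adjusted p = 6.59e-09). The proline synthesis gene Pycr1 was higher by 5.57 ± 0.41 (adjusted p = 1.01e-06), Cth, which makes cysteine, by 5.44 ± 0.34 and the secreted factor gene Stc2 by 5.42 ± 0.16. Pycr1 was higher by 2.77 and Cth by 3.43 with the normexp correction. Slc1a5, the glutamine transporter, did not pass (-0.07 ± 0.18).

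Genes of protein folding and secretion in the endoplasmic reticulum were higher at 16 of 21 and lower at 3 (median 0.87; 13 and 0 within slide 1). Xbp1, the factor of secretory cells, stood at 3.43, 3.48 and 3.57 in Th2 and 0.69, 0.62 and 0.63 in Treg (2.85 ± 0.10, adjusted p = 8.35e-09). The chaperone genes Hspa5 (1.66 ± 0.22, adjusted p = 7.85e-05), Canx (1.68 ± 0.15) and Sdf2l1 (2.07 ± 0.33) were higher. Dnajb9 (-0.22 ± 0.16) did not pass by its brightest probe, and 1 of its 3 probes was called higher (0.92 ± 0.11).

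Lipid synthesis genes were higher by smaller amounts. Of 24 sterol synthesis genes, 19 were higher and 1 lower (median 1.02; 19 and 1 within slide 1), led by Hsd17b7 (3.76 ± 0.33, adjusted p = 3.26e-06), Fdps (2.42 ± 0.20, but 0.41 ± 0.16 by its second probe), Lss, which closes the sterol rings (2.42 ± 0.13), and Insig1, a sensor of sterol levels (2.16 ± 0.17). Srebf2, the factor that turns on the pathway, did not pass by its brightest probe (0.09 ± 0.13), and 2 of its 4 probes were called higher (0.80 ± 0.19 and 1.11 ± 0.17). Of 12 fatty acid synthesis genes, 7 were higher and 1 lower (median 0.95). The lower count was 0 within slide 1, without Th2 1 and without Treg 3. Me1, the malic enzyme, was at least 8.99-fold higher, a difference of 1.14 with the normexp correction. The desaturase genes Fads2 (3.40 ± 0.23, adjusted p = 5.31e-07), Scd2 (1.93 ± 0.19) and Fads1 (1.29 ± 0.22) were higher.

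Cell cycle genes were higher in Th2 with small differences that were less stable. Of 27 DNA replication genes, 21 were higher and none lower (median 1.17; 15 called within slide 1, median 1.00). Mcm6, a subunit of the replicative helicase, stood at 6.74, 7.0 and 6.92 in Th2 and 5.43, 5.28 and 5.28 in Treg (1.56 ± 0.14, adjusted p = 4.24e-06). Gins2 (2.26 ± 0.21), the clamp loader gene Rfc3 (2.19 ± 0.13) and the licensing factor gene Cdc6 (1.67 ± 0.33) were higher. Of 25 mitosis genes, 20 were higher and none lower (median 1.01), with 9 called within slide 1, where the median was 0.96. The spindle checkpoint kinase genes Bub1 (2.03 ± 0.20, adjusted p = 7.30e-06) and Ttk (1.78 ± 0.28, 0.96 with the normexp correction), Aurkb, of the chromosomal passenger complex (1.63 ± 0.24), and Tpx2 (1.55 ± 0.22) led them, while Cdc20 (0.71 ± 0.32) and Birc5 (0.74 ± 0.30) did not pass.

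Of 25 ribosome biogenesis genes, 16 were higher and 3 lower (median 0.55; 11 and 2 within slide 1). Myc, which drives growth, stood at 3.93, 3.75 and 3.92 in Th2 and 2.48, 2.5 and 2.27 in Treg (1.45 ± 0.15, adjusted p = 1.16e-05). The nucleolar gene Npm1 (1.47 ± 0.16, adjusted p = 1.51e-05), Rrp12 (1.34 ± 0.24) and the polymerase subunit gene Polr1c (1.23 ± 0.11) were higher. Dkc1 (0.09 ± 0.19) did not pass, nor did Heatr1 by its brightest probe (-0.15 ± 0.15), though 1 of its 3 probes was called lower (-0.78 ± 0.29).

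The 12 largest differences in each direction among genes named through the gene table included genes of no list. Gipr, the receptor of an incretin hormone, stood at 3.77, 3.06 and 2.22 in Th2 and was not well above background on any Treg array, at least 514-fold higher (adjusted p = 4.25e-09). Of the same kind were Smtnl2 (smoothelin-like, at least 488-fold), Hey1, a target of Notch signalling (at least 176-fold), Cstdc4, of the cystatin family (at least 166-fold), Cpne6, a copine (at least 155-fold), and Sln, which encodes sarcolipin, a small protein that restrains calcium uptake in muscle (at least 117-fold). Serpinf1, a secreted serpin known to restrain blood vessel growth, stood at 4.92, 4.75 and 4.50 in Th2 and -5.84, -5.80 and -4.93 in Treg (10.24 ± 0.24, adjusted p = 7.25e-10). Emilin2, an extracellular matrix protein gene, was higher by 9.78 ± 0.38 (adjusted p = 1.55e-08), and the heat shock gene Hspa1a by 8.99 ± 0.44 (adjusted p = 5.65e-08). Il4, Il24 and Il5 complete the 12.

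Of the 12 largest differences in the other direction, Ifit3, Ifit3b (at least 118-fold), Rtp4 and 3 genes of a DNA-sensing family, Ifi203 (-8.14 ± 0.30, adjusted p = 1.13e-08), Ifi204 (-7.80 ± 0.41) and Ifi206 (-7.50 ± 0.54), belong to the interferon response. The last 3 are related and their probes may bind each other's transcripts. Mpeg1, which encodes the pore-forming protein perforin-2, stood at -4.95, -3.87 and -4.80 in Th2 and 3.27, 3.35 and 3.10 in Treg (-7.78 ± 0.67, adjusted p = 3.05e-06). Serpina3f, of another family of related genes, was lower (-7.70 ± 0.58). Fcrla, Lyz2 and Ccr6 were also among them. Fcrla, Lyz2 and Mpeg1 are genes of B cells or myeloid cells, and B cell markers were higher on all 3 Treg arrays, whose part in these differences was not tested.

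**Figure D5:**
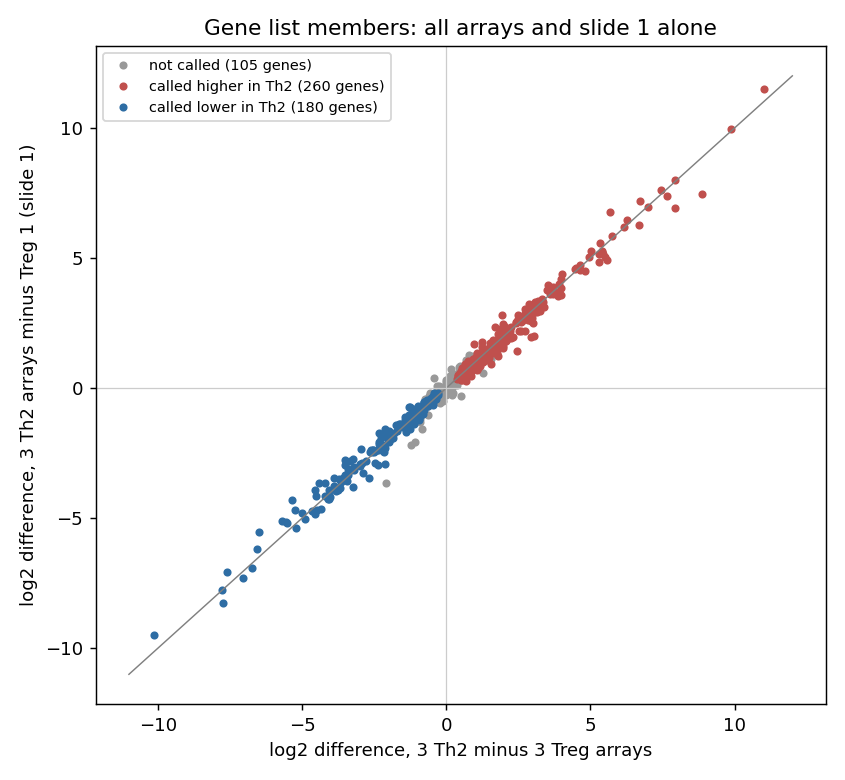
Each point is a gene of the lists, placed by the log2 difference over all 6 arrays (horizontal) and by the difference between the 3 Th2 arrays and Treg 1 on slide 1 alone (vertical), with the diagonal marking equal values. All 260 genes called higher and all 180 called lower lie on the same side of 0 on both axes.

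The Th9 arrays, from cultures with both IL-4 and TGF-β, are given beside the 2 groups as levels, with no test, and they lie on slide 3 alone. Of the 11247 called genes, the Th9 mean lay nearer to the Th2 mean at 9581 (85.2%) and nearer to the Treg mean at 1666. It lay nearer to Th2 at all 20 called glycolysis genes, all 15 hypoxia genes, all 30 interferon-stimulated genes and 11 of 12 B cell markers. Among called genes known to be induced by TGF-β, 8 of 19 lay nearer to Treg. Nt5e had a Th9 mean of 2.30 beside -1.37 in Th2 and 1.84 in Treg, and Itgae of 0.33 beside -3.51 and -1.24. Foxp3 lay between, at -1.98 beside -6.15 in Th2 and 0.57 in Treg. Tcf7 stood at 1.37 in Th9, beside 1.47 and 5.12, and Hk2 at 5.17, beside 5.55 and 0.75.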

How the data were processed

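RNA was measured on 1-colour Agilent 4x44K arrays, 3 per group. The authors deposited spot intensity on a linear scale, as scanner output, and the headers name Agilent Feature Extraction 10.5.1.1. The deposited table of the series holds log2 values, set against each array's own log2 signal at r of 0.9996 or above, with column medians of 5.17. It served as an alternative. How it was made is not given in the sources used here. Its count of called genes (11253) was nearly that with quantile normalization (11252), so these 2 alternatives are hardly separate checks. Well above background on the 6 arrays were 24642 to 25711 of 41174 probes. The number of arrays limits the precision.

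Control and outlier spots were left out, spots of a probe averaged as log2, and the array's 75th percentile subtracted. Probes well above background on at least 3 of the 12 arrays were kept, with the brightest probe per gene. All 12 arrays were fitted with limma 3.58.1 (lmFit, 1 mean per group, eBayes; R 4.3.3), with Benjamini-Hochberg adjustment over 17925 genes, 14207 of them named through a GRCm38.p6 table. Errors of differences are SE. Where no array of the dimmer group was well above background, the fold is a bound, written at least N-fold. The dimmer level is then the mean over that group's arrays of a floor, namely the smallest signal called well above background there or the probe's own value if that is larger. Such a bound holds for the main processing only, and normexp background correction can give a smaller difference. Of 6240 genes with several probes, 534 had opposite calls.

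The 27 gene lists and 7 marker lists (579 genes, 545 tested) were chosen with earlier results of these data known, as was the comparison. Named are the 12 largest called differences each way that do not overlap between groups, up to 4 called members per list, a fixed set of 20 T cell genes, and members that did not pass as examples. Itgae, Notch2, Areg, Gpi1, Cd4, Cd79a and the genes marked so in the text were named after their values were seen. Some genes that the rule names are not reported here. The slide as a block, which amounts to the comparison within slide 1, and other scalings, filters and omissions were tried as alternatives. The labels name no pairing by replicate number, and the main fit has none. Deviations of same-numbered Th2 and Treg arrays from their group means correlated at -0.007 to 0.025, which cannot show whether such arrays belong together. The code was tested on simulated data.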

Additional observations from a re-analysis of the deposited data

How the results depend on the processing

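Over 17 alternatives, the counts of genes called higher and lower stayed within 1.5 times of 5249 and 5998. The counts with at least 2-fold did so too, except with normexp background correction (offset 50), which gave 1853 higher and 1587 lower in place of 2813 and 2836. That correction moved the difference by over 1.5 times at 36 of 145 called named genes, among them Il5 (4.64), Foxp3 (-3.61) and Gipr (6.15), and 5 of them were not called under it. Leaving out 1 array at a time gave 4741 to 5261 genes higher, 5367 to 5764 lower, 2717 to 2863 at least 2-fold higher and 2744 to 2979 at least 2-fold lower. Of the 145 called named genes, 137 stayed called with the same direction under every alternative that could be run for them. The median difference over all genes lay between -0.112 and 0.032. The percentage of calls that were higher in Th2 lay between 45.1 and 48.0. Of genes that did not pass, Tgfbr1 turned sign with quantile normalization and in the deposited table (-0.0013 in both), with the percentile over probes above background on all arrays (-0.0204), and without Th2 3 or Treg 3 (range with 1 array left out -0.0715 to 0.0564), and Stat6 turned sign without Th2 3 (range -0.108 to 0.134).

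With the replicate number as a block the fit gave 5278 genes higher and 6030 lower, and no named gene changed its call. The main fit does not pair the Th2 with the Treg arrays, as the labels name no pairing. The deviations of same-numbered arrays of these groups correlated at -0.007 to 0.025, and those of Th2 and Th9 at 0.201, 0.185 and 0.411. A correlation over all genes cannot show whether same-numbered arrays belong together, and a few genes split by number, as given below. With the slide as a random block the estimated correlation was -0.003 and 11251 genes were called. With the slide as a fixed block 9002 were called. The median SE was 0.17, and 0.22 with that block. What part the wider SE and the slide have in the smaller count was not tested. At 3 arrays per group, a probe near background gives only a bound.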

Other observations

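A few genes that did not pass between Th2 and Treg split the arrays by replicate number instead. Slc15a2, which encodes a peptide transporter, had levels of -7.93, -8.04, -8.09 and -8.25 on the arrays numbered 2 of the Th2, Treg, Th9 and restimulated Th9 groups, and -3.92 to 1.22 on the 8 arrays numbered 1 and 3. Xlr3c, an X-linked lymphocyte-regulated gene, had levels of -5.95, -7.80, -4.86 and -7.98 on the arrays numbered 1 in the same order and -2.93 to 0.42 on those numbered 2 and 3. Slxl1, an Slx-like gene, had -5.80, -5.21, -5.46 and -5.33 on the arrays numbered 1 and -3.77 to -2.99 on the others. Capn11, a calpain gene, had -3.45, -2.83, -3.32 and -5.72 on the arrays numbered 1 and -8.39 to -5.46 on the others, and in restimulated Th9 the array numbered 1 was not the highest. Slc25a31 was high on the arrays numbered 3 of Th2, Treg and Th9 (-4.31, -4.82 and -4.22) but not of restimulated Th9 (-8.09).

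In all, 36 genes had 1 Th2 array standing at least 2 log2 units from both others, and by more than 2 times the gap between those, and 80 had 1 such Treg array. Of the 8 genes in both sets, 5 had the same replicate number standing apart in the same direction, and in those 5 the Th9 array of that number did so as well. These genes were chosen after their values were seen. The labels do not say what a replicate number stands for, and what the arrays of a number share was not tested. Over all genes, the deviations of same-numbered arrays from their group means correlated at -0.007 to 0.025 for Th2 and Treg, at 0.185 to 0.411 for Th2 and Th9, at 0.048 to 0.141 for Th9 and Treg and at 0.095 to 0.209 for Th9 and restimulated Th9.

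The interferon-stimulated genes, which differed between the cultures, also leaned to the same replicate numbers in both. Of the 32 genes, 30 were lowest on Th2 1 among the Th2 arrays and 29 lowest on Treg 1 among the Treg arrays, where 31% and 34.3% of all genes were. On the arrays numbered 3, 26 were highest in Th2 and 31 in Treg, beside 33.6% and 41.7% of all genes. Among the Th9 arrays 12 were lowest on number 1 and 19 highest on number 3, beside 38.9% and 36% of all genes. Among the restimulated Th9 arrays 17 were lowest on number 1 and 17 highest on number 3, beside 31.8% and 38.7%. These genes share arrays and direction, so the counts are given with no test.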
